A study of Mus musculus with 8 samples.

Results

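The genes examined here take part in LDL receptor family uptake and cholesterol handling, and comprise Mylip, Scarb1, Lrp1, Sort1, Vldlr, Npc1 and Npc2. They were chosen by gene symbol, with earlier results of these data known, and all 7 were found among the 25010 genes measured by RNA-Seq in mouse liver. Left lobes of liver were taken from 2 WT and 2 LXRDKO mice, all on a C57BL/6 background, 8 wk old and fasted for 4 to 6 h. LXRDKO mice lack both liver X receptors, LXRα (gene Nr1h3) and LXRβ (gene Nr1h2), in every tissue and throughout life, so that direct loss of the receptors from hepatocytes and changes elsewhere in the body cannot be told apart. Each mouse gave 1 library, and WT and LXRDKO livers are numbered replicate 1 and 2 within each genotype. Reads assigned to genes numbered 55772659 and 72842744 for WT replicates 1 and 2, and 63681131 and 56281367 for LXRDKO replicates 1 and 2.

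The liver clears LDL and remnant particles from blood through receptors of the LDL receptor family, which bind lipoproteins at the cell surface and carry them into endosomes. In the lysosome, cholesteryl esters of the particle are hydrolysed, and free cholesterol is handed from NPC2 in the lumen to NPC1 in the lysosomal membrane for export. LXRs are activated by oxysterols when cells hold much cholesterol, and they induce Mylip, also called Idol, a ubiquitin ligase that marks receptors of the LDL receptor family for degradation. SREBP2, which is activated when cholesterol is scarce, drives the genes of sterol synthesis and uptake. Scavenger receptor SR-BI, encoded by Scarb1, takes up cholesteryl esters from HDL.

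Both deleted receptors were first examined as a check of the labels. Values are normalized counts, in which the reads of each library are scaled by its DESeq2 size factor. Nr1h3 stood at 5785 and 5322 in WT against 1712 and 1826 in LXRDKO, and Nr1h2 at 2987 and 3110 against 925 and 1003. Both genes were lower in both LXRDKO livers, by a log2 fold change of -1.65 ± 0.10 (SE, n = 2 per genotype) for Nr1h3 and -1.66 ± 0.10 for Nr1h2 (limma, adjusted P = 0.0147 for each). Without LXRDKO replicate 1 or 2 the log2 fold changes stayed at or below -1.60, but the adjusted P values rose to between 0.0768 and 0.0953. The counts cover whole genes, and which exons held the remaining reads was not analysed here.

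None of the 7 genes passed an adjusted P value of 0.05 in the comparison of LXRDKO with WT liver by limma, DESeq2 or edgeR. All 7 had a log2 fold change below 0, as did 50.9% of the 15578 genes tested, and their median was -0.35 against -0.0046 over all genes tested. Without WT replicate 2 the median of the 7 was -0.20, the value of Scarb1 in that fit. For 4 of them, Mylip, Npc1, Lrp1 and Sort1, each LXRDKO liver had less than either WT liver, and for 0 it had more, where 23.0% of all genes tested lay below and 21.7% above. At an unadjusted P of 0.05, limma passed 2 of the 7, Mylip and Npc1, both with lower values in LXRDKO, against 7.5% of all genes tested lower and 5.77% higher. The unadjusted test of edgeR passed the same 2, against 7.08% of all genes lower and 6.01% higher. That of DESeq2 passed 4 with lower values, Mylip, Npc1, Lrp1 and Vldlr, against 6.51% lower and 4.84% higher. After adjustment, limma called 0.186% of genes lower and 0.135% higher in LXRDKO, edgeR called 0.193% lower and 0.122% higher, and DESeq2 called 2.03% lower and 1.56% higher. With 2 livers against 2, an exact permutation test of 1 gene cannot give a two-sided P under 0.33, so these P values rest on the spread pooled across genes.

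**Figure D1:**
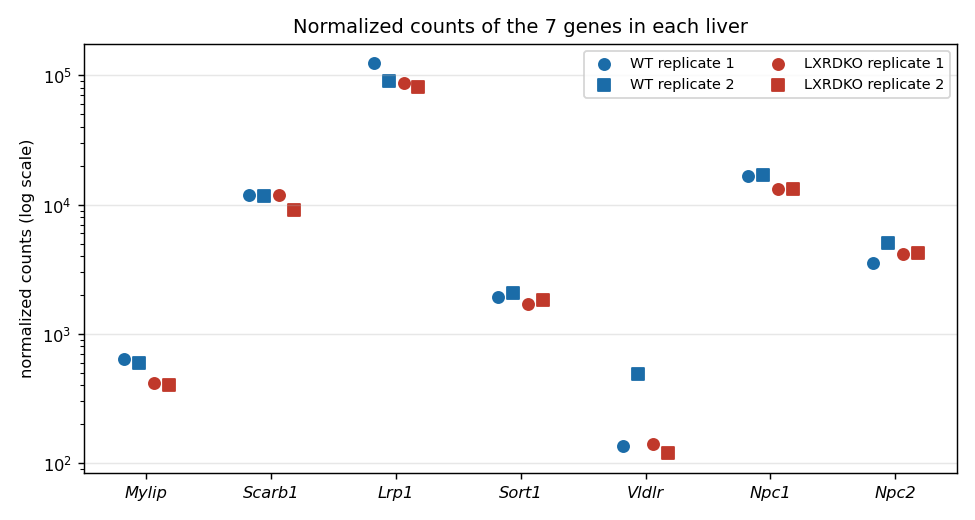
Normalized counts (log scale) of the 7 genes in each of the 2 WT (blue) and 2 LXRDKO (red) livers, with circles for replicate 1 and squares for replicate 2. Mylip and Npc1 show closely spaced replicates and no overlap between genotypes, whereas for Vldlr WT replicate 2 stands at 488 and the other 3 livers at 119 to 140.

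Mylip, the LXR-induced ubiquitin ligase, had 641 (replicate 1) and 598 (replicate 2) normalized counts in WT liver against 420 and 404 in LXRDKO. Replicates of each genotype lay close together, and each LXRDKO liver had less than either WT liver. The LXRDKO level was 66.5% of the WT level (95% interval 53.3% to 83.0%), a log2 fold change of -0.59 ± 0.13 (SE, n = 2 per genotype) with an adjusted P of 0.161 by limma and an unadjusted P of 0.00444. DESeq2 gave an adjusted P of 0.0543 with its default filtering and 0.0510 with filtering set for a threshold of 0.05, and edgeR gave 0.180. Whichever liver was left out, the log2 fold change stayed between -0.64 and -0.54. The depth behind these values was 377 to 705 reads per library.

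Mylip lies on chromosome 13 of GRCm38 (45389742 to 45412022, plus strand), and its longest coding transcript has 7 exons. RefSeq start sites on GRCm38.p6 gave the 250 bases upstream of Mylip, Lrp1, Npc2 and Vldlr, 4 of the 7 genes. The windows of Mylip (chr13:45389492-45389741, plus strand) and of Lrp1 (chr10:127621149-127621398, minus strand) are shown because both genes had lower values in both LXRDKO livers while their upstream sequences differ. They run 5′ to 3′ and end at the base before the start. Capitals mark the CCAAT box (CCAAT or its complement ATTGG), the core of the motif of NF-Y, and the TATA box (TATAAA).
Mylip: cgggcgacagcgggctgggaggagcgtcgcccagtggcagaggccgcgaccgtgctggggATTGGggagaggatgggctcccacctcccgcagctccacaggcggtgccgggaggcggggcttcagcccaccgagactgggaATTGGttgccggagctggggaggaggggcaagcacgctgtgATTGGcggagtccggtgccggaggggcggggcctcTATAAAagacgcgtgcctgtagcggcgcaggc
Lrp1: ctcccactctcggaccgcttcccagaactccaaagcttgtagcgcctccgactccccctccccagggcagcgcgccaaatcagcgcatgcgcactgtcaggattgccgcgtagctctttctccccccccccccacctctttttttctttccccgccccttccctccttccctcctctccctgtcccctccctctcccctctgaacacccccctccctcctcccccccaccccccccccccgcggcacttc

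The Mylip window held 3 CCAAT boxes, beginning 190, 108 and 67 bases before the start, and a TATA box beginning 32 bases before it. At least 3 CCAAT boxes were found in 2.79% of 32851 mouse windows of the same length, at least 1 in 33.9%, and a TATA box in 12.4%. The Lrp1 window held neither. The Npc2 window, of a gene whose levels overlapped between genotypes, held 2 CCAAT boxes, at 75 and 6 bases, and 3 GC boxes (GGGCGG). Of the windows of Vldlr, which has more than 1 RefSeq start, the first held none of these motifs and the other 1 CCAAT box, at 78 bases, and 1 GC box. Those of Mylip and Lrp1 each held 1 GC box, at 44 bases before the start in Mylip and 99 in Lrp1, as did 32.7% of all windows with at least 1. None of these windows held the nuclear receptor half-site AGGTCA, present in 14.0% of windows, nor a direct repeat of it with a spacer of 4 bases, the DR4 element that LXR binds, present in 5 windows. Both strands were searched with exact letters, so a match is a description and other spellings of these elements were not counted.

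Lrp1, a large endocytic receptor that clears remnant particles, was the most abundant of the 7 genes. It had 123516 and 91130 normalized counts in WT liver against 86572 and 80582 in LXRDKO. Each LXRDKO liver had less than either WT liver, but WT replicate 1 stood well above the other 3 livers. The log2 fold change was -0.35 ± 0.19 (SE, n = 2 per genotype; 95% interval -0.81 to 0.12), with an adjusted P of 0.512 by limma. Lrp1 lies on chromosome 10 (127538161 to 127621148, minus strand) and has 89 exons in its longest coding transcript. Without WT replicate 1 the log2 fold change was -0.13, and without WT replicate 2 it was -0.56.

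Vldlr, the receptor for very-low-density lipoproteins, had 137 and 488 normalized counts in WT liver against 140 and 119 in LXRDKO. The genotypes overlapped, since WT replicate 1 lay between the LXRDKO livers, and WT replicate 2 was 3.57 times as high as WT replicate 1. Of all genes tested, 98.7% differed less between the WT livers. The log2 fold change of -0.99 ± 0.58 (SE, n = 2 per genotype; 95% interval -2.42 to 0.43; limma adjusted P = 0.540) rested on WT replicate 2. Without that liver it was -0.08, and without WT replicate 1 it was -1.91, with an adjusted P of 0.0187 in limma, where the lone WT liver was assumed to vary like the others. Vldlr lies on chromosome 19 (27216484 to 27254231, plus strand) and was counted with 111 to 575 reads per library.

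Scarb1, which encodes the HDL receptor SR-BI, had 11971 and 11578 normalized counts in WT liver against 11909 and 9069 in LXRDKO. LXRDKO replicate 1 lay within the WT range and LXRDKO replicate 2 below it. The log2 fold change was -0.18 ± 0.15 (SE, n = 2 per genotype; 95% interval -0.54 to 0.18; limma adjusted P = 0.668), and leaving out LXRDKO replicate 2 gave 0.02, whereas leaving out replicate 1 of that genotype gave -0.38. Scarb1 lies on chromosome 5 (125277087 to 125341094, minus strand). Pdzk1, an adaptor that holds SR-BI at the hepatocyte surface, had 4462 and 4261 normalized counts in WT liver against 3077 and 3508 in LXRDKO, without overlap (log2 fold change -0.41 ± 0.10, adjusted P = 0.205 by limma and 0.109 by DESeq2).

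Sort1 encodes sortilin, a sorting receptor of the Golgi and endosomes that binds lipoproteins. It stood at 1937 and 2063 normalized counts in WT against 1709 and 1823 in LXRDKO. The genotypes did not overlap, and the gap between the nearest livers of each was about as large as that between livers of 1 genotype. The log2 fold change was -0.18 ± 0.10 (SE, n = 2 per genotype; 95% interval -0.42 to 0.06; limma adjusted P = 0.508). Sort1 lies on chromosome 3 (108284082 to 108361511, plus strand).

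Npc1, the cholesterol transporter of the lysosomal membrane, had 16647 and 16936 normalized counts in WT liver against 13107 and 13091 in LXRDKO. Replicates nearly coincided in each genotype, and each LXRDKO liver had less than either WT liver. The LXRDKO level was 78.0% of the WT level (95% interval 67.1% to 90.7%), a log2 fold change of -0.36 ± 0.09 (SE, n = 2 per genotype) with an adjusted P of 0.203 by limma, 0.0817 by DESeq2 and 0.241 by edgeR, and an unadjusted limma P of 0.00738. Leaving out any 1 liver gave -0.37 to -0.35. Exons of Npc1 overlap those of Rmc1, a protein-coding gene on the opposite strand, over 511 bases, and those of the antisense gene Gm15956 over 90 bases. How the counting used strand is not given in the sources used here. Rmc1 had 1689 and 1514 normalized counts in WT liver against 1528 and 1398 in LXRDKO, far fewer than Npc1.

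Npc2, the soluble partner of NPC1, had 3509 and 5072 normalized counts in WT liver against 4153 and 4219 in LXRDKO. Both LXRDKO livers lay between the WT livers, and the log2 fold change was -0.01 ± 0.18 (SE, n = 2 per genotype; 95% interval -0.45 to 0.43; limma adjusted P = 0.987). The difference between the log2 fold changes of Npc1 and Npc2 was not tested. Npc2 lies on chromosome 12 (84754562 to 84773152, minus strand).

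**Figure D2:**
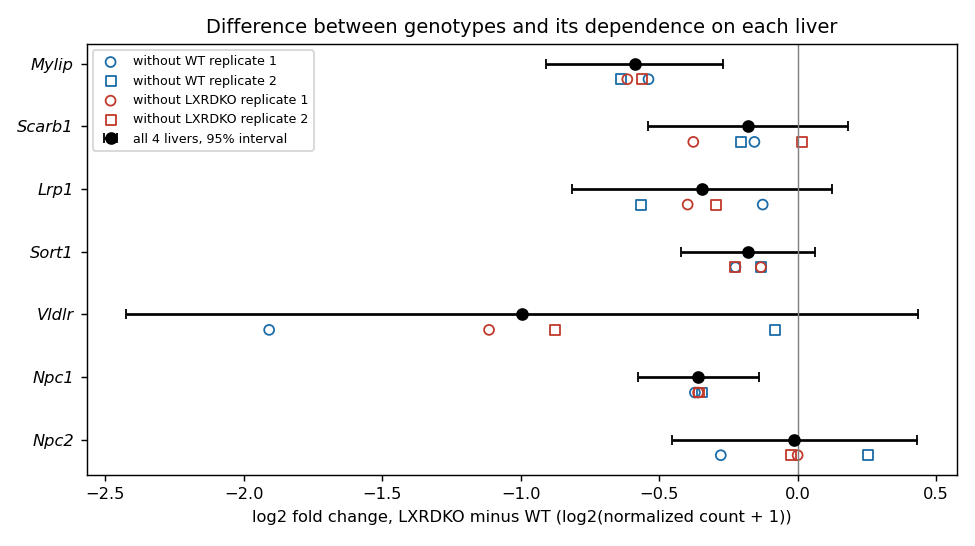
Log2 fold change of LXRDKO minus WT for each gene, with its 95% interval from limma (black, n = 2 per genotype), and the value when each liver is left out in turn (open symbols). The intervals of Mylip and Npc1 lie below 0, and the open symbols of Vldlr spread from -1.91 to -0.08.

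Levels of different genes were compared as normalized counts per kb of merged exons. In WT liver Lrp1 stood at 6058 ± 1293 (mean ± SD, n = 2). Npc1 at 1484 ± 18 and Scarb1 at 1385 ± 32.7 followed, and Npc2 stood at 789 ± 203. Sort1 at 264 ± 11.8, Mylip at 192 ± 9.32 and Vldlr at 31.0 ± 24.7 were lowest. Ranked by the mean over all 4 livers, Lrp1 was above 97.2% of the genes tested and Vldlr above 21.7%. In LXRDKO liver the means were 4717 ± 239 for Lrp1, 1157 ± 1.02 for Npc1, 1234 ± 236 for Scarb1, 770 ± 8.66 for Npc2, 233 ± 10.6 for Sort1, 127 ± 3.37 for Mylip and 12.9 ± 1.51 for Vldlr. The order was the same in 3 of the 4 livers. In LXRDKO replicate 1 Scarb1 stood above Npc1, and it also did so in WT when levels were taken per kb of the longest coding transcript (4670 against 3214), so these neighbours have no fixed order.

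Genes with the profile nearest to each of the 7 over the 4 livers were found by the root mean square difference of log2 values centred on each gene's mean. Tnfrsf14 (0.0219) and Dcaf12l1 (0.0234) were nearest to Mylip, Sesn3 (0.0110) and Ralgps1 (0.0119) to Lrp1, and Usp10 (0.00894) and Mkln1 (0.0103) to Npc1. Plekhg3 and Gm15427 were nearest to Scarb1, Cr1l and Scarf1 to Sort1, and Tnfrsf12a and Gm12744 to Npc2. Such likeness over 4 livers was common. Within a difference of 0.1 there were 148 genes for Mylip, 843 for Npc1 and 2279 for Sort1, but 1 for Vldlr, Cbfa2t3 (0.0966). Cbfa2t3 had 208 and 717 normalized counts in WT liver against 179 and 176 in LXRDKO, high in WT replicate 2 alone like Vldlr, and Il1rn was next (0.123).

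Further genes of the same route were taken from 4 lists that together hold 62 genes, of which 55 were tested. The lists were chosen with earlier results of these data known, so the shares below are a description and not independent support. None of the 55 passed the adjusted threshold by limma. At an unadjusted limma P of 0.05, 11 had lower values in LXRDKO and 0 higher, or 20% against the 7.5% and 5.77% of all genes given above. For 22 (40%) each LXRDKO liver had less than either WT liver, and for 6 it had more, where 23.0% of all genes tested lay below and 21.7% above. DESeq2 called 5 lower and 0 higher, against 2.03% and 1.56% of all genes.

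Of the other uptake receptors, 13 of 15 were tested, 11 had a log2 fold change below 0 and the median was -0.32. The median was -0.18 without LXRDKO replicate 2, -0.21 without LXRDKO replicate 1 and -0.22 without WT replicate 1. Lsr, the lipolysis-stimulated lipoprotein receptor, had 12135 and 12197 normalized counts in WT liver against 9429 and 9144 in LXRDKO (log2 fold change -0.39 ± 0.09, limma adjusted P = 0.161, DESeq2 adjusted P = 0.0494). It was the receptor of this list that DESeq2 called. Lrp6 (-0.35) and Lrp3 (-0.34), relatives of Lrp1, did not overlap between genotypes and passed neither test. Sdc1, a heparan sulfate proteoglycan that binds remnant particles, had a log2 fold change of 0.36 with an adjusted P of 0.537, and was named after its value was seen.

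Of the receptor chaperones, adaptors and sorting proteins, 15 of 19 were tested, with 12 log2 fold changes below 0 and a median of -0.08, which was -0.13 without WT replicate 2 and -0.02 with scaling to the library total. Beside Pdzk1, the named genes were Dab2, a clathrin adaptor (-0.50, adjusted P = 0.359), and Sorl1, a relative of Sort1 (0.53, adjusted P = 0.498). For 9 each LXRDKO liver had less than either WT liver, and for 2 it had more, beside the 23.0% and 21.7% of all genes tested. Of 11 genes of receptor ubiquitination and shedding, all tested, 7 had a log2 fold change above 0, the median was 0.02 and none passed an unadjusted P of 0.05. Named there were Gpc3 (0.37), Ube2d1, a ubiquitin-conjugating enzyme (-0.27), and Bmp1, a metalloprotease (0.23).

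The lysosomal and intracellular cholesterol transfer genes were split, with 8 of the 16 tested below 0 and 8 above, and a median of 0.00. Lipa, the lysosomal acid lipase that hydrolyses cholesteryl esters of LDL, had 12283 and 14992 normalized counts in WT liver against 8098 and 8692 in LXRDKO. Stard4, a cytosolic sterol carrier, had 10382 and 10569 in WT and 5701 and 7099 in LXRDKO. Neither gene overlapped between genotypes. Lipa had a log2 fold change of -0.69 ± 0.12 (limma adjusted P = 0.127, DESeq2 adjusted P = 5.88e-04) and Stard4 one of -0.72 ± 0.13 (0.120 and 5.99e-04). DESeq2 also called Lima1, which is known from intestinal cholesterol absorption (-0.68, 0.00545), and Soat2, which esterifies cholesterol (-0.62, 0.0172). Lamp1 and Lamp2, general proteins of the lysosomal membrane, differed by -0.02 and 0.04 on the log2 scale (limma adjusted P = 0.958 and 0.920). Soat2, Lamp1 and Lamp2 were named after their values were seen.

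The 9 LXR-induced sterol genes had a median log2 fold change of -0.68, and 1 of them, Srebf1, the gene of SREBP1, fell by limma (-2.51 ± 0.24, adjusted P = 0.0407), against 0.186% of all genes called lower. DESeq2 called 4 of the 9 lower, against 2.03% of all genes, namely Srebf1, Scd1, Abcg1 and Lpcat3, a phospholipid remodelling enzyme (-0.68, DESeq2 adjusted P = 0.00311), which was named after its value was seen. Scd1, a fatty acid desaturase, at -4.15 (limma adjusted P = 0.0615, DESeq2 adjusted P = 1.72e-05), and Pltp, the phospholipid transfer protein, at -2.45 (limma adjusted P = 0.205, DESeq2 adjusted P = 0.106) had larger or similar differences with a wider spread. Mylip, which is not in this list, lay at -0.59. The cholesterol exporters had log2 fold changes of -1.21 for Abcg1 (limma adjusted P = 0.120, DESeq2 adjusted P = 3.97e-04), -0.18 for Abca1, 0.03 for Abcg5 and 0.02 for Abcg8, and these 4 were named after their values were seen.

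**Figure D3:**
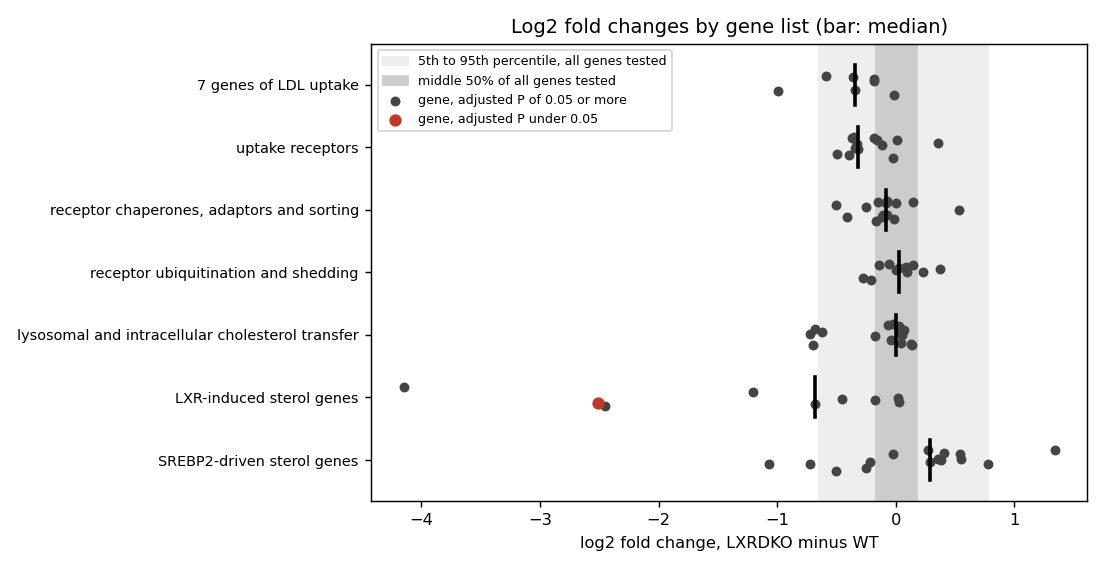
Log2 fold change of LXRDKO minus WT for each tested gene (points) of the 7 genes and of 6 lists, with bars for medians and red for an adjusted P under 0.05 in limma. Shading shows the middle 50% (-0.17 to 0.18) and the 5th to 95th percentile of all genes tested. The 7 genes and the uptake receptors have medians of -0.35 (-0.20 without WT replicate 2) and -0.32 (-0.18 without LXRDKO replicate 2). Srebf1 is the red point.

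The 15 SREBP2-driven sterol genes, among which Stard4 is counted again, had a median log2 fold change of 0.29, which was -0.24 without LXRDKO replicate 2. All 15 were higher in LXRDKO replicate 2 than in LXRDKO replicate 1, by 1.25 to 2.77 times, where 50.3% of all genes tested were higher. Hmgcs1, of the mevalonate pathway, had 10515 and 12160 normalized counts in WT liver against 9956 and 27598 in LXRDKO. Of the 7 uptake genes, 2 were higher in LXRDKO replicate 2, Sort1 and Npc2, by 1.07 and 1.02 times. Npc1 differed between the LXRDKO livers by a factor of 1.00 and Scarb1 was lower in replicate 2, at 0.761 times. Cyp51, of sterol synthesis, was called higher by DESeq2 (log2 fold change 1.34, limma adjusted P = 0.117), and Insig1, which holds SREBP in the endoplasmic reticulum, had -1.07 and Sqle, of sterol synthesis, 0.78, with adjusted P values of 0.318 and 0.432. Hmgcs1 was named after its values were seen.

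Among the LXR-induced genes, livers of both genotypes differed. WT replicate 2 was higher than WT replicate 1 for 8 of 9, where 49.5% of all genes tested were higher, by as much as 3.12 times for Pltp and 1.98 times for Scd1. LXRDKO replicate 2 was higher than LXRDKO replicate 1 for 7 of 9, with 2.25 times for Pltp and 2.48 times for Scd1. WT replicate 2 was the WT liver in which Vldlr was 3.57 times as high. Of the 15 SREBP2-driven genes 12 were also higher in WT replicate 2, and the 15 stood at 0.895 to 1.24 times their level in WT replicate 1.

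**Figure D4:**
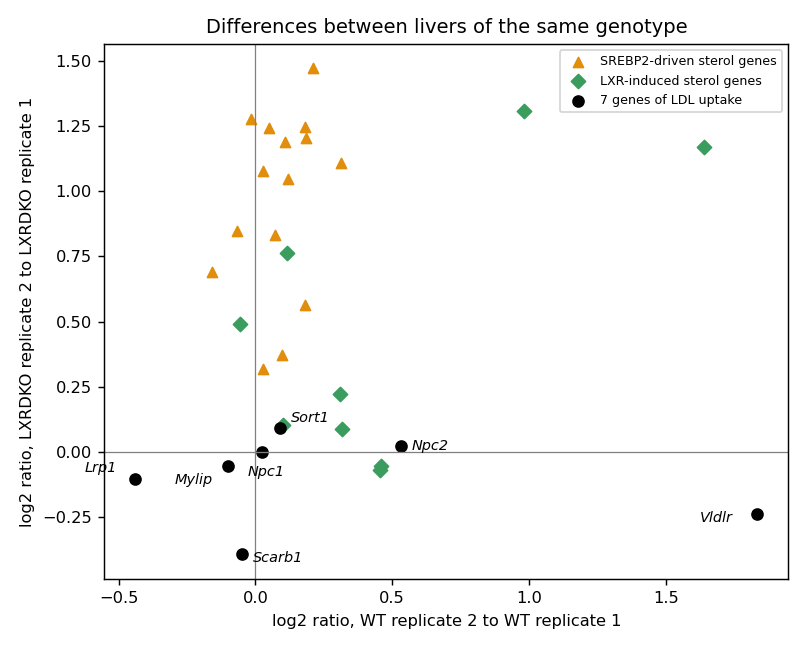
Log2 ratio of replicate 2 to replicate 1 in the LXRDKO livers (vertical) against the WT livers (horizontal) for the 7 uptake genes (black), 15 SREBP2-driven genes (orange) and 9 LXR-induced genes (green). All orange points lie above 0 on the vertical axis, and Vldlr lies far to the right.

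Whole liver holds several cell types, and fewer cells of a type and less RNA per cell cannot be told apart in these data. Hepatocyte markers (6 genes, the most abundant Alb) summed to 94.5% and 106% of the WT mean in WT, against 100% and 91.8% in LXRDKO, a sum made up mostly of Alb. All 6 were abundant in every liver. Of the 6, 4 had a log2 fold change above 0 and 2 below. Hnf4a, Tdo2 and Cps1 were higher in both LXRDKO livers than in either WT liver, with log2 fold changes of 0.60, 0.73 and 0.33, Ttr was lower in both (-0.07), and Alb overlapped (-0.14). Limma called none of the 6, and DESeq2 called Hnf4a (adjusted P = 0.0115) and Tdo2 (3.92e-07) higher. Kupffer cell markers (6 genes, the most abundant Clec4f) summed to 97.2% and 103% in WT and 10.0% and 5.74% in LXRDKO. All 6 were below WT in both LXRDKO livers, 4 were called lower by limma and 6 by DESeq2, and Timd4 was at 0 reads in LXRDKO replicate 2. General macrophage markers (6 genes, the most abundant Csf1r) stood at 92.7% and 107% in WT and 122% and 72.5% in LXRDKO, with 0 called by limma or DESeq2. Their log2 fold changes were split, with 3 below 0 and 3 above. Only Adgre1 did not overlap between genotypes, and it was lower in LXRDKO (-0.79, limma adjusted P = 0.344).

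Sinusoidal endothelial markers (6 genes, the most abundant Stab2) summed to 105% and 94.7% in WT and 74.0% and 58.0% in LXRDKO. Kdr (limma adjusted P = 0.0498) and Cdh5 (0.0255) were called lower by limma and by DESeq2. Of the 6, 5 had a log2 fold change below 0, among them Pecam1 at -0.24, and 1, Lyve1, lay above (0.23). Stab2 is also in the uptake receptor list. Lymphocyte markers (5 genes, the most abundant Cd3e) stood at 82.8% and 117% in WT and 49.4% and 34.3% in LXRDKO, from few reads, with 0 called by limma or DESeq2. Stellate cell markers (6 genes, the most abundant Dcn) summed to 94.5% and 106% in WT and 138% and 158% in LXRDKO, and cholangiocyte markers (5 genes, the most abundant Spp1) to 73.4% and 127% in WT and 161% and 191% in LXRDKO. Limma called 0 of either list, while DESeq2 called Reln (adjusted P = 0.0320), Dcn (0.00357) and Epcam (0.0112) higher. Lrp1, Npc1, Npc2 and Lipa are expressed in macrophages as well as hepatocytes, and the part of these markers' differences in the values above was not tested.

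**Figure D5:**
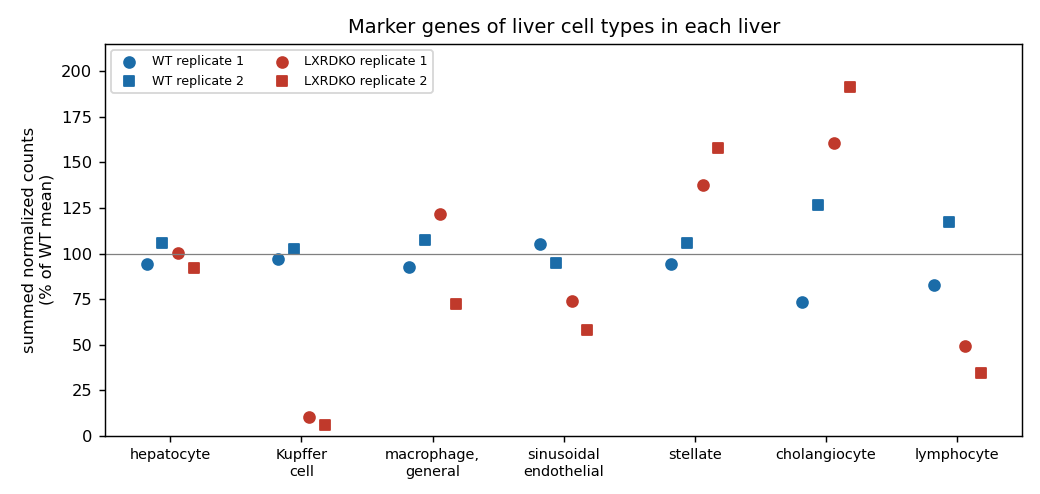
Summed normalized counts of marker genes of 7 cell types in each liver, as a percentage of the mean of the WT livers. Kupffer cell markers are at 10.0% and 5.74% in the LXRDKO livers, and the hepatocyte sum, mostly Alb, is between 91.8% and 106% in all 4 livers.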

How the data were processed

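Sequencing was single-end, on stranded KAPA libraries of captured mRNA, from RNA isolated with TRIzol and a Qiagen kit. Per the labels, reads were aligned to mm10 with STAR 2.6.0c. The counting tool, the annotation release and the use of strand are not given in the sources used here. The deposited values are a signal, counts that the authors normalized with DESeq2 size factors. All values (100% in each library) lay within 0.01 read of a whole multiple of 1 read, so reads were recovered.

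The main test was limma 3.58.1 (R 4.3.3) with a variance trend, applied to log2(normalized count + 1) of the 15578 genes averaging 10 normalized counts or more, at a Benjamini-Hochberg adjusted P of 0.05. Fold changes on this scale understate those of low genes. Recovered reads were also tested with DESeq2 1.42.0 and with edgeR 4.0.16 (quasi-likelihood). DESeq2 was first run with independent filtering set for 0.05 (580 genes called), and after those values had been seen the default of 0.1 (567 genes called) took its place, as the authors' methods name no other setting. Calls for the genes of the lists did not differ between the settings.

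The 7 genes and all lists were chosen with earlier results of these data known. Named were the 7 genes, Nr1h3, Nr1h2, up to 3 genes per list (called genes first, then the largest log2 fold changes among genes without overlap between genotypes), 2 genes of nearest profile for each of the 7, and cell type markers. Gene models were GENCODE M21 on GRCm38 (24987 identifiers matched, 23 did not). Each mouse was 1 replicate. Chromatin accessibility was not analysed here.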

Additional observations from a re-analysis of the deposited data

How the results depend on the processing

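Limma called 50 genes in all. Under the alternatives, 25 were called with a minimum mean of 50 normalized counts, 1 without the variance trend, 90 with the replicate block, 567 with DESeq2 and 580 with DESeq2 filtered for 0.05, and 2 to 265 when each liver was left out. None of the 7 genes was called under any of these except when WT replicate 1 was left out, when Vldlr was (0 to 1 of the 7 genes over the 4 livers left out). Mylip kept its direction under all 16 alternatives, with log2 fold changes of -0.64 to -0.53 and adjusted P values of 0.0510 to 0.479, and Npc1 with -0.37 to -0.30. Npc2 changed sign with scaling to the library total (0.0433), and leaving out livers gave -0.277 to 0.255. Scarb1 ranged from -0.376 to 0.0167 over the livers left out. Vldlr ranged likewise from -1.91 to -0.0816, Nr1h3 from -1.71 to -1.59 and Nr1h2 from -1.72 to -1.60. Without the trend, Nr1h3 (-1.65) and Nr1h2 (-1.66) no longer passed (adjusted P = 0.212). Nor did they without LXRDKO replicate 1 (0.0953 and 0.0952) or without LXRDKO replicate 2 (0.0813 and 0.0768). The median of the uptake receptors was -0.251 with no filter, -0.265 with library totals and -0.243 with DESeq2, and -0.334 to -0.183 over the livers left out. With library totals the medians of the chaperone, ubiquitination and lysosomal lists were -0.0247, 0.0784 and 0.0586. Over the livers left out they were -0.133 to -0.0693, -0.0115 to 0.0606 and -0.0403 to -0.00362, while those of the LXR-induced genes were -0.836 to -0.526 and those of the SREBP2-driven genes -0.238 to 0.883. The cause was not tested.

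The labels give replicate numbers but do not say whether these pair the mice. Over all genes tested, the deviations of the livers correlated at 0.0031 between genotypes. This correlation cannot show whether mice were paired, because a shift shared by few genes would hardly change it. With the replicate block Mylip had an adjusted P of 0.196 and Npc1 one of 0.239. The default filtering of DESeq2 was adopted after the values with filtering for 0.05 had been seen, and the length of the longest coding transcript was added after seeing the data. With 2 livers per genotype, the intervals above limit what can be detected.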
